A study of Mus musculus with 18 samples.

Results

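The genes of glycolysis and nutrient transport were followed in mouse splenic B cells given the cytokine BAFF as a 3mer or a 60mer. The set was a list of 31 mouse genes, taken by symbol from the 35275 gene IDs of the deposited table. It held 2 glucose transporters, 14 enzymes of glycolysis, 4 genes of lactate formation and transport, 7 amino acid transporter genes and 4 enzymes of the pentose phosphate path. All 31 were in the table, and 29 reached a mean of 1 FPKM (fragments per kilobase and per M fragments, M standing for mega) over the libraries and were tested. The exceptions were Pfkm and Ldhb.

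Pan B cells from the spleen of C57BL/6 mice were first held for 1 h in control antibody or in mBaffR-mFc, each at 1000 ng/ml. The latter is a fusion of the mouse BAFF receptor that, by the series' own description, blocks the site on BAFF that the receptor BR3 binds. The cells were then kept for 4 h with 100 ng/ml of BAFF 3mer, with 100 ng/ml of BAFF 60mer, or without BAFF. With 3 libraries each, the 6 groups are called Ab, Ab_3mer and Ab_60mer after the control antibody, and BRFc, BRFc_3mer and BRFc_60mer after mBaffR-mFc. Every group was thus pretreated with a protein, and no library came from cells without pretreatment. The labels do not say whether the 3 libraries of a group came from separate mice, so all p-values below reflect the variation among these libraries alone, which may be technical.

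Glucose enters lymphocytes through facilitative transporters of the Slc2a family and is phosphorylated by hexokinases, after which glycolysis breaks it down to pyruvate. Lactate dehydrogenase turns pyruvate into lactate, which leaves the cell through monocarboxylate transporters, and the pentose phosphate path draws glucose 6-phosphate off for NADPH and ribose. Resting B cells use little of these routes, activated B cells take up more glucose and amino acids, and BAFF is known as a survival factor that raises the metabolic readiness of B cells.

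Library totals recovered from the steps of the FPKM values ran from 12.2 to 25.4 M fragments, median 18.4 M. They were 15.65 to 21.88 M in Ab, 18.96 to 21.69 M in Ab_3mer and 12.22 to 17.39 M in Ab_60mer. After mBaffR-mFc they were 18.57 to 25.42 M in BRFc, 17.86 to 19.2 M in BRFc_3mer and 15.86 to 21.45 M in BRFc_60mer. The part of depth in the differences between groups was not tested. The 8 B cell markers summed to 4636 to 5321 FPKM in a library. The 7 T cell markers summed to 4.29 to 6.47 FPKM, with Cd4 at 0 in 8 of 18 libraries. The 4 endothelial markers summed to 0.144 to 0.42 FPKM, with Emcn at 0 in 14 libraries. The 7 myeloid markers summed to 150.6 to 186 FPKM and the 6 natural killer cell markers to 92.5 to 117.8 FPKM. Of the libraries, 8 carried connective tissue transcripts (Col1a1, Col1a2, Col3a1, Sparc, Dcn and Bgn summed to 8.14 to 12.9 FPKM), while the other 10 held 0 to 0.131 FPKM. The 8 were all 6 libraries with BAFF 60mer and libraries 1 and 2 of Ab_3mer, so every comparison of 60mer with no BAFF, and that of BRFc_60mer with BRFc_3mer, also compares libraries with and without these transcripts. A comparison in which all libraries carried them could be made between Ab_60mer and Ab_3mer without its library 3, and its values are given beside the genes that passed a comparison with 60mer. It sets 60mer against 3mer after the control antibody, with only libraries 1 and 2 of Ab_3mer. Its values therefore do not retest calls made against no BAFF or after mBaffR-mFc.

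The libraries also shared a pattern that the groups do not explain. In the order of deposition, library 3 of all 6 groups was the highest of its group for 594 of the 11646 tested genes (5.10%) and the lowest for 173 (1.49%), against 14 to 69 genes for library 1 or 2. None of the genes of the set was among these, while Myc was highest in library 1 and Ddit4 in library 3 of every group. The labels do not say that libraries at the same place in this order belong together. A fit with that place as a block, chosen after the data were seen, left the differences as they are and is quoted where it changed a call.

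Promoter sequence was taken from RefSeq (GRCm38.p6) for 4 of the genes whose level differed between 60mer and other libraries, to show the letters before the start of genes that rose or fell. Each is the 250 bases before the RefSeq start, 5′ to 3′ on the strand of the gene. The gene positions given further below are those of GENCODE and can differ. That of Slc16a3 starts at 120948480, so the Slc16a3 window lies inside it. Capitals mark ACGTG, the core of the hypoxia response element, or its reverse complement CACGT. The windows are chr6:82774455-82774704 (minus strand) for hexokinase 2, chr19:41911621-41911870 (plus strand) for phosphoglycerate mutase 1, chr15:96699729-96699978 (minus strand) for Slc38a2 and chr11:120948817-120949066 (plus strand) for Slc16a3.
Hk2: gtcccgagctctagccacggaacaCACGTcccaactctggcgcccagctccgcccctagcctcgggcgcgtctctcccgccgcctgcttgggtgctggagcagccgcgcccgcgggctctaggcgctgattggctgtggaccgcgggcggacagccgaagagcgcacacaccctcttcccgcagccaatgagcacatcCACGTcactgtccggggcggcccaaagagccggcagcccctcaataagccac
Pgam1: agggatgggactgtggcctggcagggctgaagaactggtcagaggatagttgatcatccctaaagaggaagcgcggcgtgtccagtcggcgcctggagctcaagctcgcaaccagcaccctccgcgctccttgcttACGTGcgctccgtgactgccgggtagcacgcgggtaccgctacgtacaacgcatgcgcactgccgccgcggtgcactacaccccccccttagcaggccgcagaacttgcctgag
Slc38a2: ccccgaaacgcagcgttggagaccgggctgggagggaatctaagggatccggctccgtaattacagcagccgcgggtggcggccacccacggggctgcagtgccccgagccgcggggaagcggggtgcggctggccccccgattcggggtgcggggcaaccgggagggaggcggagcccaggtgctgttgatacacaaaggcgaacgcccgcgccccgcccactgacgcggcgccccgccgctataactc
Slc16a3: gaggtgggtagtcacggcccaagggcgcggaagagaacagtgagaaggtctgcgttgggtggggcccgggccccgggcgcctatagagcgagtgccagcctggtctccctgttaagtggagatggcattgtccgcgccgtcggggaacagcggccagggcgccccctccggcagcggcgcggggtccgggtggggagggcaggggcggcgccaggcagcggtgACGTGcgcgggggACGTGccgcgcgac
The Hk2 window held 2 matches, the Slc16a3 window 2 and the Pgam1 window 1, while the Slc38a2 window held none. The promoter table had 41 windows for 27 of the 31 genes and none for Slc2a3, Slc1a5, Slc7a5 and Slc38a1. On either strand, ACGTG was in 15 of the 41 windows (36.6%), against 16.6% of all 32851 windows of the same length. These 15 belonged to 12 genes: Slc2a1, Hk2, Pfkm, Aldoa, Pgk1, Pgam1, Pkm, Ldha, Slc16a1, Slc16a3, Slc3a2 and Slc7a6. The E box CACGTG, which contains ACGTG and is read by MYC and MondoA, was in 3 of the 41 windows (7.32%, in Pfkm, Ldha and Slc16a1), against 6.02% of all windows. TGATGNAAT, an element of ATF4 and C/EBP factors, was in 0 of the 41 windows, against 0.816% of all. A match is a description of the letters, and some genes have several overlapping windows.

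Most of the genes were abundant in these B cells, and their levels hardly moved between the 6 groups. Gapdh, the dehydrogenase in the middle of glycolysis, had the highest mean FPKM over the 18 libraries (596.7), followed by the aldolase Aldoa (499.4), the lactate dehydrogenase Ldha (382.4) and the enolase Eno1 (334.6). FPKM are scaled by length, so these levels can be set side by side. The coefficient of variation over all 18 libraries ran from 2.87% (Pfkp) to 13.6% (Slc16a3) among the 29 tested genes. Summed over all 31 genes, the FPKM were 3991 ± 45.6 (SD, n = 3) in Ab, 4010 ± 134 in Ab_3mer and 3992 ± 82.9 in Ab_60mer. After mBaffR-mFc the sum was 3869 ± 136 in BRFc, 3854 ± 67.0 in BRFc_3mer and 3964 ± 93.7 in BRFc_60mer, with BRFc_3mer (3782 to 3914 in its libraries) below Ab (3943 to 4033) and overlap between the libraries of every other pair of groups.

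**Figure D1:**
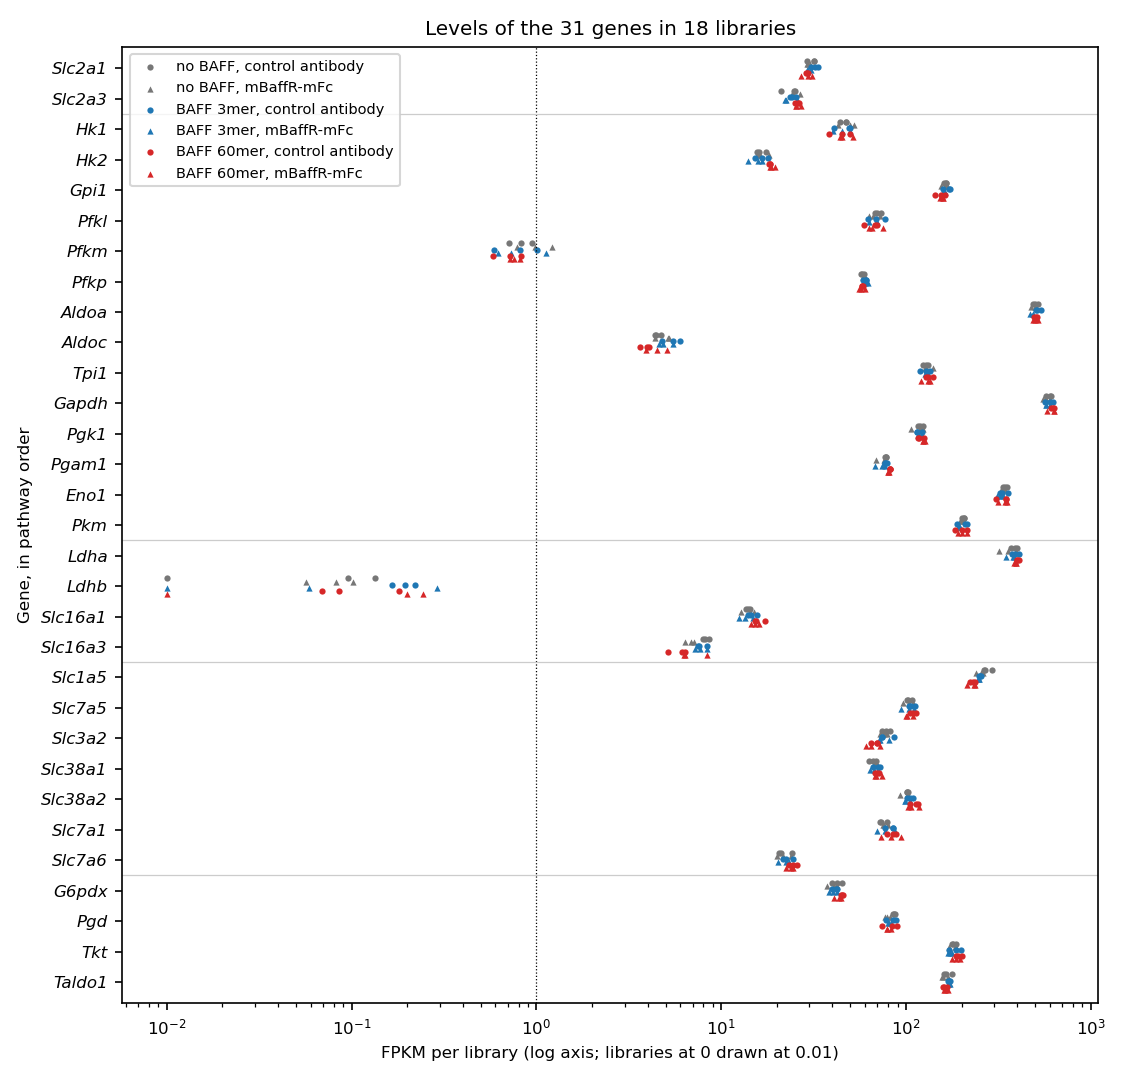
FPKM on a log axis for the 31 genes in pathway order, with a point for each of the 18 libraries, coloured by BAFF form and shaped by pretreatment. Libraries at 0 are drawn at the left edge, the dotted line is the filter of 1 FPKM, and the points of a gene lie close together for nearly every gene above that line.

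Where a step has several isozymes, most came from 1 or 2 genes. Hk1, the broadly expressed hexokinase, made up 73.0% ± 2.33 (SD over 18 libraries) of the summed Hk1 and Hk2 FPKM. Pfkl, the liver type of phosphofructokinase, made up 53.1% ± 1.89 and Pfkp, the platelet type, 46.2% ± 1.89 of their family. The muscle type Pfkm held 0.643% of it, at 0.581 to 1.21 FPKM. Aldoa held 99.1% of the Aldoa and Aldoc sum, and Ldha 99.97% of the Ldha and Ldhb sum, with Ldhb at 0 to 0.29 FPKM. The glucose transporters Slc2a1 and Slc2a3 were nearly balanced, with 54.9% ± 2.20 from Slc2a1. Of the monocarboxylate transporters in the set, Slc16a1 carries lactate both ways and Slc16a3 is the lactate exporter of glycolytic cells. Slc16a1 made up 66.8% ± 3.97 of their sum. Slc16a6 and Slc16a7, family members outside the set, averaged 25.6 and 1.31 FPKM over the 18 libraries and are not in that sum. These shares describe which isozymes the RNA came from, and the rule that chose the genes did not use them.

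Several abundant enzymes did not pass in any comparison with 60mer. Gpi1, which turns glucose 6-phosphate into fructose 6-phosphate, averaged 163.9 ± 2.31 FPKM (SD, n = 3) in Ab and 153.6 ± 9.03 in Ab_60mer, a difference of -0.09 ± 0.046 (SE, limma adjusted p = 0.178). Tpi1, which interconverts the triose phosphates, averaged 127.2 ± 4.15 FPKM in Ab and 133.1 ± 5.89 in Ab_60mer, a difference of 0.06 ± 0.055 (limma adjusted p = 0.467). The transketolase Tkt of the pentose phosphate path averaged 181 ± 4.39 FPKM in Ab and 192.6 ± 6.5 in Ab_60mer, a difference of 0.09 ± 0.053 (limma adjusted p = 0.279). After mBaffR-mFc the differences by 60mer were -0.04 ± 0.046 for Gpi1, -0.03 ± 0.055 for Tpi1 and 0.05 ± 0.053 for Tkt, with limma adjusted p of 0.715, 0.822 and 0.697.

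Some exons overlap those of a gene on the other strand, and the sources used here do not state whether counting used strand. Among partners with a mean of at least 1 FPKM, G6pdx shares 418 of its 3080 exon bases with Ikbkg (31.2 FPKM), and Pfkp shares 748 of 13401 with Pitrm1 (18.9 FPKM). Shorter stretches are those of Gapdh with Iffo1 (68 bases, 14.7 FPKM), Tpi1 with Spsb2 (34 bases, 7.07 FPKM) and Pfkm with Senp1 (18 bases, 32.5 FPKM). The partners of Gpi1, Hk1, Slc2a1 and Aldoa on the other strand lay under 1 FPKM. Copies and relatives of the genes were low: of 13 found in the table, Gapdhs reached 5.60 FPKM and Pgk2 1.75 FPKM on average, and the other 11 at most 0.36 FPKM.

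After the control antibody, 2 of the 29 tested genes fell with BAFF 60mer and 0 rose (limma, Benjamini-Hochberg adjusted p under 0.05 over 11646 genes). The 2 were Slc1a5, the glutamine and neutral amino acid transporter, and Slc16a3. Of all 11646 genes 14% passed in this comparison (5.04% higher and 8.94% lower), against 2 of 29 here. An unadjusted limma p under 0.05 was found for 5 of the 29 and for 3452 of all genes. Rescaling by median of ratios left the same 2 genes and the same direction, while over all genes it changed the split from 587 higher and 1041 lower to 763 higher and 880 lower. The median log2 difference of the 29 genes was 0.00 and that of all genes -0.02, and the median absolute difference was 0.0848 against 0.109. The 95% confidence interval stayed within a change of 1.25-fold for 23 of the 29 genes and within 1.5-fold for 28, whereas 57.5% of all tested genes stayed within 1.25-fold. The libraries of Ab_60mer and Ab did not overlap for 11 of the 29 genes, against 32.7% of all genes. With the deposition order as a block 4 of 29 passed, against 20.8% of all genes: Slc1a5 and Slc16a3, Slc3a2 as lower (-0.20 ± 0.057, limma adjusted p = 0.0224, against 0.0742 without the block) and Slc7a1 as higher (0.17 ± 0.054, limma adjusted p = 0.0375, against 0.19).

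**Figure D2:**
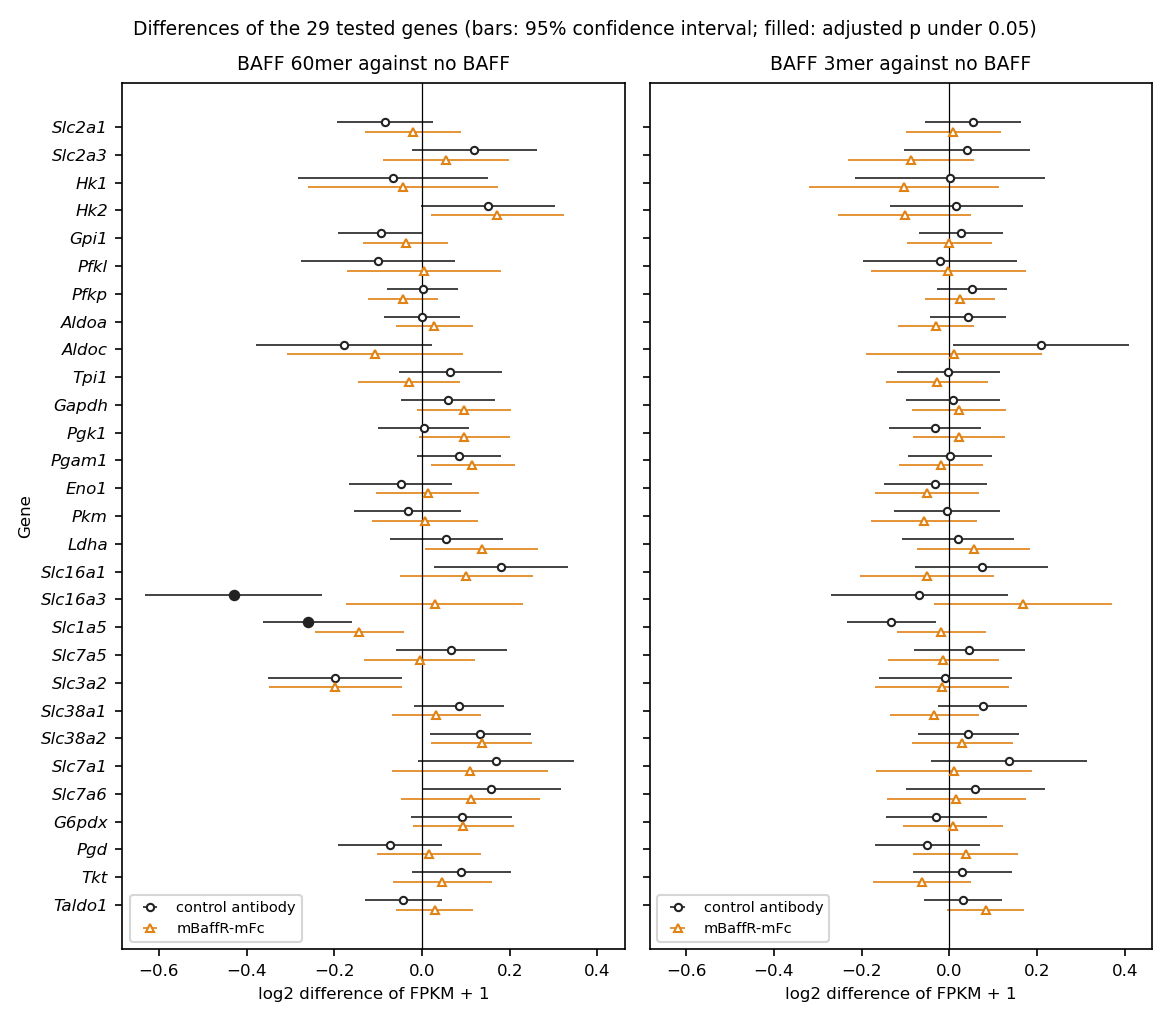
Log2 differences of log2(FPKM + 1) for the 29 tested genes with their 95% confidence intervals (limma) for 60mer (left) and 3mer (right) against no BAFF, after control antibody (circles) or mBaffR-mFc (triangles). Filled points passed the test, and these are Slc1a5 and Slc16a3 for 60mer after the control antibody.

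Slc1a5 (chr7:16781340-16798274, plus strand, GRCm38) had FPKM of 291.7, 263.9 and 268.3 in Ab and of 221.6, 229.4 and 235.3 in Ab_60mer. All 3 Ab_60mer libraries lay below all 3 Ab libraries. The group means were 274.6 ± 14.9 and 228.8 ± 6.89 (SD, n = 3), and the difference on the log2(FPKM + 1) scale was -0.26 ± 0.048 (SE, limma adjusted p = 0.00252). Ab_3mer lay between them with 246.8, 250.5 and 253.3, and its difference from Ab was -0.13 ± 0.048 (limma adjusted p = 0.881). After mBaffR-mFc, Slc1a5 measured 260.9, 239.0 and 253.9 in BRFc and 213.1, 232.2 and 237.3 in BRFc_60mer. There too every 60mer library lay below every library without BAFF, and the difference of -0.14 ± 0.048 did not pass (limma adjusted p = 0.102). In BRFc_3mer the 3 values were 248.4, 249.4 and 246.1, inside the range of BRFc. Among the libraries carrying connective tissue transcripts, the difference of Ab_60mer from Ab_3mer was -0.12 ± 0.055 (limma adjusted p = 0.322).

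Slc16a3 (chr11:120948480-120960868, plus strand) had low FPKM of 7.92, 8.60 and 8.14 in Ab and of 6.14, 6.34 and 5.13 in Ab_60mer, with no overlap. The difference was -0.43 ± 0.096 (SE, limma adjusted p = 0.00824), or 0.743-fold on the log2(FPKM + 1) scale. After mBaffR-mFc, BRFc measured 6.86, 7.14 and 6.36 and BRFc_60mer 8.33, 6.28 and 6.36, so that the groups overlapped. The difference there was 0.03 ± 0.096 (limma adjusted p = 0.909). The test of the difference between these 2 responses gave 0.46 ± 0.135 with a limma adjusted p of 0.763, so the 2 pretreatments were not shown to differ. The interval of that difference, 0.17 to 0.74 before adjustment over all genes, did not cover 0. BRFc without BAFF differed from Ab by -0.24 ± 0.096 (limma adjusted p = 0.829). Slc16a1, the other monocarboxylate transporter of the set, averaged 13.9 ± 0.345 FPKM in Ab and 15.9 ± 1.08 in Ab_60mer and did not pass. Its share of the summed Slc16a1 and Slc16a3 FPKM was 62.9% in Ab and 73.1% in Ab_60mer, against 67.5% in BRFc and 68.6% in BRFc_60mer.

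Compared with 3mer after the control antibody, 60mer left 2 of the 29 genes lower and none higher, where 4.81% of all genes passed (1.80% higher and 3.01% lower). The libraries of these groups did not overlap for 9 of the 29 genes, against 23.9% of all genes. This comparison shares the Ab_60mer libraries with the one above. Slc16a3, at 7.56, 8.39 and 7.46 FPKM in Ab_3mer, was lower in Ab_60mer by -0.36 ± 0.096 (limma adjusted p = 0.0392). Aldoc, an aldolase best known from brain, measured 5.96, 4.77 and 5.49 FPKM in Ab_3mer and 3.95, 3.65 and 4.06 in Ab_60mer. The groups did not overlap, and the difference was -0.39 ± 0.095 (limma adjusted p = 0.0264). Aldoc in Ab, at 4.45, 4.73 and 4.41 FPKM, lay between the 2 groups. Both calls depended on single libraries: Aldoc passed only without library 2 of Ab_3mer or library 3 of Ab_60mer when 1 of the 6 was left out, and Slc16a3 only without library 2 of Ab_60mer. At an unadjusted limma p under 0.05 the full comparison had 7 of the 29 and 2366 of all 11646 genes. With the comparison restricted to carrying libraries, which leaves out Ab_3mer library 3, 2.11% of all genes passed and 0 of the 29, with 6 of 29 at an unadjusted limma p under 0.05. There Aldoc stood at -0.38 ± 0.110 (limma adjusted p = 0.101) and Slc16a3 at -0.39 ± 0.109 (limma adjusted p = 0.0859). With the block, Slc3a2 passed as well (-0.19 ± 0.057, limma adjusted p = 0.0489), against 9.44% of all genes.

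BAFF 3mer after the control antibody changed none of the 29 genes by limma, and none of all 11646 (0% called). At an unadjusted p under 0.05 there were 2 of 29, and 632 of all genes. The 3 smallest p-values belonged to Slc1a5 (-0.13, above), Aldoc (0.21 ± 0.095) and the cationic amino acid transporter Slc7a1 (0.14 ± 0.084), each with a limma adjusted p of 0.881. The interval was within 1.25-fold for 28 of the 29 genes, so larger changes by 3mer were outside the intervals for all but Aldoc, whose upper bound was 0.41.

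After mBaffR-mFc, 60mer changed 0 of the 29 genes by limma, where 4.83% of all genes passed (1.46% higher and 3.37% lower). At an unadjusted limma p under 0.05 there were 6 of the 29 and 2179 of all 11646 genes. The libraries of the 2 groups did not overlap for 3 of the 29 genes, against 20.5% of all genes. With the deposition order as a block 1 of 29 passed, Slc3a2 (-0.20 ± 0.057, limma adjusted p = 0.0404), against 9.49% of all genes. Without BRFc library 1, the lactate dehydrogenase Ldha passed as higher. Over all genes 170 were higher and 393 lower, or 226 higher and 289 lower with rescaling. The smallest p-values were those of Slc1a5 (above), Slc3a2 (-0.20 ± 0.072, limma adjusted p = 0.136) and Pgam1 (0.12 ± 0.045, limma adjusted p = 0.17). BAFF 3mer after mBaffR-mFc changed 0 of 29 (0% of all genes), with 0 at an unadjusted limma p under 0.05, against 388 of all 11646. Its smallest p-values belonged to the transaldolase Taldo1 (0.08 ± 0.042), Slc16a3 (0.17 ± 0.096) and Hk2 (-0.10 ± 0.072), all at a limma adjusted p of 0.999.

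Between 60mer and 3mer after mBaffR-mFc, 1 of the 29 genes passed, against 5.16% of all genes (2.05% higher and 3.11% lower), and the libraries did not overlap for 5 of the 29 genes, against 24.2% of all genes. This was Hk2, the inducible hexokinase, at 16.7, 15.7 and 13.9 FPKM in BRFc_3mer and 18.5, 18.4 and 19.6 in BRFc_60mer. All 60mer libraries were above all 3mer libraries, and the difference was 0.27 ± 0.072 (limma adjusted p = 0.0346). The connective tissue transcripts summed to 0 to 0.131 FPKM in BRFc_3mer and 9.79 to 10.7 in BRFc_60mer, and their part in the result was not tested. Leaving out 1 of the 6 libraries ended the call in every case but that of BRFc_3mer library 1. Among only the genes of the whole table that passed in this comparison, 39.8% were higher, and 49% with rescaling.

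The pretreatment moved none of the genes past the test. In BRFc against Ab, 0 of 29 passed (0% of all genes) and 3 had an unadjusted limma p under 0.05: Slc1a5 (-0.13 ± 0.048), Slc16a3 (above) and the pentose phosphate dehydrogenase Pgd (-0.12 ± 0.056, limma adjusted p = 0.831). Over all 11646 genes, 688 had an unadjusted limma p under 0.05 there. With 3mer, 0 of 29 passed (0% of all genes). An unadjusted limma p under 0.05 was found for 452 of all 11646 genes and 1 of the 29, namely Aldoa at -0.11 ± 0.041. Beside it, Slc2a1 (-0.10 ± 0.052) and Pgam1 (-0.09 ± 0.045) had the smallest p-values, each with a limma adjusted p of 0.998. In that comparison 26 of the 29 differences were below 0, with a median of -0.05 against 0.01 for all genes. With 60mer, 0 of 29 passed (0.0258% of all genes). An unadjusted limma p under 0.05 was found for 540 of all 11646 genes and 1 of the 29, Slc16a3 at 0.21 ± 0.096. Aldoc (0.17 ± 0.095) and G6pdx (-0.07 ± 0.054) followed, all with a limma adjusted p of 0.993.

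Whether the response to BAFF differed between the pretreatments was tested directly. For 60mer 0 of 29 genes passed, against 0.00859% of all genes. Of the 29, 1 gene, Slc16a3, had an unadjusted limma p under 0.05, against 640 of all 11646. Slc1a5 (0.12 ± 0.068) and the phosphoglycerate kinase Pgk1 (0.09 ± 0.070) came next, both with a limma adjusted p of 0.922. For 3mer 0 of 29 passed (0% of all genes), with 0 at an unadjusted limma p under 0.05, against 560 of all 11646. The smallest there were Slc16a3 (0.24 ± 0.135), Slc1a5 (0.11 ± 0.068) and the glutamine transporter Slc38a1 (-0.11 ± 0.068), all at 0.981. A limma F test over all 6 groups at once passed 2 of the 29 genes, Slc1a5 (adjusted p = 0.00888) and Slc16a3 (adjusted p = 0.0471), against 8.93% of all genes. When each of the 18 libraries was left out in turn, Slc1a5 passed every time and Slc16a3 only without library 1 or library 3 of BRFc_60mer. With the block the F test passed 4 of the 29, against 16.1% of all genes, the further 2 being Slc3a2 (adjusted p = 0.0191) and Pgam1 (adjusted p = 0.0372).

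Averaging the 2 pretreatments in the same fit, a contrast chosen after the data were seen, set 6 libraries with 60mer against 6 without BAFF. It uses the same libraries as the comparisons above. Of the 29 genes 6 passed, against 22.1% of all genes: Hk2, Pgam1 and the amino acid transporter Slc38a2 were higher, and Slc1a5, Slc3a2 and Slc16a3 lower. Over all genes 919 were higher (7.89%) and 1660 lower (14.3%). The 6 libraries with 60mer and the 6 without BAFF did not overlap for 3 of the 29 genes, against 8.30% of all genes. With rescaling 1315 were higher and 1335 lower, and 8 of the 29 passed, 6 higher and 2 lower. G6pdx, Slc16a1 and Slc7a6 then also passed as higher, and Slc16a3 did not. With the deposition order as a block the 6 genes kept their calls, and Slc7a1 (0.14), Slc16a1 (0.14) and Slc7a6 (0.13) also passed as higher (limma adjusted p = 0.0132, 0.0314 and 0.02), against 28.5% of all genes.

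**Figure D3:**
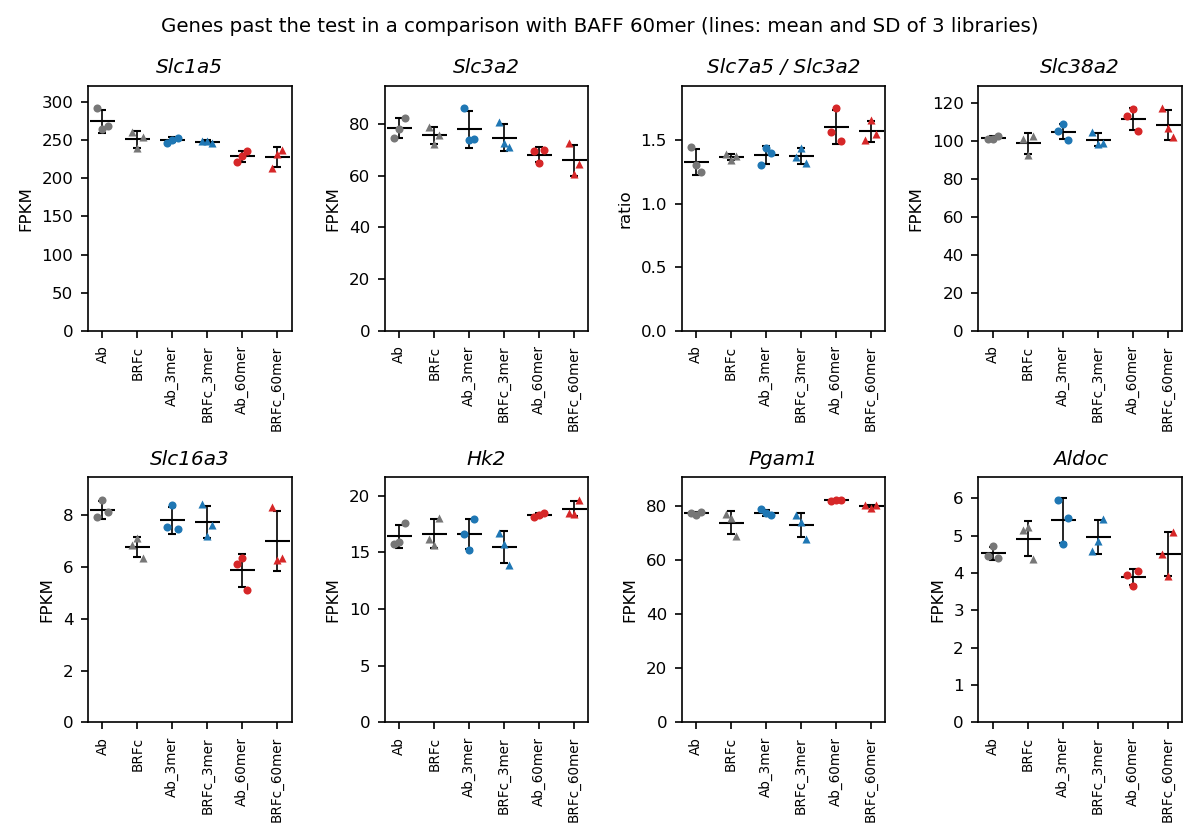
FPKM in each of the 18 libraries for the 7 genes that passed a test in a comparison with BAFF 60mer in the fit without a block, and the ratio of Slc7a5 to Slc3a2, by group, with lines for the mean and SD (n = 3). The axes start at 0. Slc1a5 and Slc3a2 are lower in the 60mer groups, and Hk2, Pgam1 and Slc38a2 slightly higher.

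Slc3a2 (chr19:8706882-8723369, minus strand) encodes the heavy chain that carries Slc7a5 and its relatives to the cell surface. It measured 74.5, 78.2 and 82.3 FPKM in Ab and 69.4, 64.9 and 70.1 in Ab_60mer. In BRFc it measured 79.0, 72.2 and 75.6, and in BRFc_60mer 72.5, 60.7 and 64.6. The groups did not overlap after the control antibody, and after mBaffR-mFc library 1 of BRFc_60mer lay just above library 2 of BRFc. The averaged difference was -0.20 ± 0.051 (limma adjusted p = 0.011), with -0.20 in each pretreatment on its own. Among carrying libraries the value was -0.22 ± 0.081 (limma adjusted p = 0.19).

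Slc7a5, the light chain that imports large neutral amino acids together with Slc3a2, did not follow it. Its means were 104.0 ± 3.26 FPKM in Ab, 109.0 ± 4.41 in Ab_60mer, 103.6 ± 6.51 in BRFc and 103.2 ± 4.67 in BRFc_60mer. The ratio of Slc7a5 to Slc3a2 FPKM, a measure also chosen after the data were seen, was 1.33 ± 0.103 in Ab and 1.60 ± 0.132 in Ab_60mer (SD, n = 3). After mBaffR-mFc it was 1.37 ± 0.0249 in BRFc and 1.57 ± 0.0823 in BRFc_60mer. With 3mer it was 1.38 ± 0.0716 in Ab_3mer and 1.37 ± 0.0603 in BRFc_3mer. The 6 libraries with 60mer ran from 1.495 to 1.751 and the 12 others from 1.246 to 1.445, without overlap. These ratios are given as a description. A permutation test was run on them, but its p-values are not used here, since both genes had been seen before the ratio was formed.

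In the average, Slc1a5 was lower with 60mer (-0.20 ± 0.034, limma adjusted p = 0.000548), and so was Slc16a3 (-0.20 ± 0.068, limma adjusted p = 0.0431). The Slc16a3 average joins responses of -0.43 and 0.03. Slc38a2 (chr15:96687392-96699730, minus strand), which brings in small neutral amino acids, measured 101.4, 101.3 and 102.9 FPKM in Ab and 113.3, 116.8 and 105.6 in Ab_60mer. In BRFc it had 101.2, 92.7 and 102.6 and in BRFc_60mer 117.4, 106.9 and 102.0. The BRFc groups overlapped and the Ab groups did not. The averaged difference was 0.13 ± 0.038 (limma adjusted p = 0.0195), and 0.06 with a limma adjusted p of 0.71 among carrying libraries.

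Hk2 (chr6:82725025-82774454, minus strand) measured 15.7, 15.9 and 17.6 FPKM in Ab and 18.1, 18.3 and 18.5 in Ab_60mer, and 16.2, 15.7 and 18.1 in BRFc against the BRFc_60mer values above. Every library with 60mer lay above every library without BAFF. The averaged difference was 0.16 ± 0.051 (limma adjusted p = 0.0318), and 0.15 and 0.17 in the single pretreatments. Hk1 did not pass, and its share of the hexokinase FPKM averaged 73.9% in Ab, 70.7% in Ab_60mer, 74.4% in BRFc and 71.3% in BRFc_60mer. Pgam1 (chr19:41911923-41918660, plus strand), which moves the phosphate of phosphoglycerate, had 77.6, 76.9 and 77.9 FPKM in Ab and 82.0, 82.3 and 82.2 in Ab_60mer. In BRFc it had 77.1, 75.6 and 69.0 and in BRFc_60mer 80.4, 79.5 and 80.2, so that all 60mer libraries were above those without BAFF. The averaged difference was 0.10 ± 0.032 (limma adjusted p = 0.0342). Among carrying libraries Hk2 stood at 0.19 (limma adjusted p = 0.26) and Pgam1 at 0.07 (limma adjusted p = 0.563).

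These averaged calls rested on different numbers of libraries. When each of the 12 libraries was left out in turn, Slc1a5 and Slc3a2 passed every time and Slc38a2 failed 3 times, without BRFc library 2, Ab_60mer library 2 or BRFc_60mer library 1. Hk2 failed in 8 of 12 cases and passed only without library 3 of Ab, library 3 of BRFc, or libraries 1 or 2 of BRFc_60mer. Pgam1 failed in 9 and passed only without libraries 1 or 2 of BRFc or library 3 of BRFc_60mer. Slc16a3 also failed in 9 and passed only without library 3 of BRFc, library 2 of Ab_60mer or library 1 of BRFc_60mer.

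Averaged over the pretreatments, 60mer against 3mer also passed 6 of 29 genes, against 14.5% of all genes (5.90% higher and 8.60% lower). An unadjusted limma p under 0.05 was found for 15 of the 29 and for 3389 of all 11646 genes. Of the 6 libraries with 3mer, 4 carried no more than 0.131 FPKM of the connective tissue transcripts. Hk2 (0.20 ± 0.051, limma adjusted p = 0.0128) and Pgam1 were higher, and Aldoc (-0.25 ± 0.067, limma adjusted p = 0.0187), Slc1a5 (-0.13 ± 0.034, limma adjusted p = 0.0188), Slc16a3 and Slc3a2 lower. Of these, Hk2 and Slc1a5 passed whichever library was left out, and they were the only 2 without library 2 of BRFc_60mer. Slc3a2 failed without library 1 of Ab_3mer, library 1 of BRFc_3mer, library 2 of Ab_60mer or library 2 of BRFc_60mer. Aldoc failed without library 3 of BRFc_3mer or library 2 of BRFc_60mer, Slc16a3 without the latter, and Pgam1 in 7 of 12 cases. BAFF 3mer against no BAFF passed 0 of 29 in the average (0% of all genes). Of the 29, Slc1a5 (-0.08 ± 0.034, limma adjusted p = 0.958) alone had an unadjusted limma p under 0.05, against 524 of all 11646 genes. Taldo1 (0.06 ± 0.030) and Aldoc (0.11 ± 0.067) came next at the same adjusted p. Averaged over the 3 BAFF conditions, mBaffR-mFc against control antibody passed 0 of 29 (0.00859% of all genes). Pgam1 (-0.07 ± 0.026) and Ldha (-0.08 ± 0.035) had an unadjusted limma p under 0.05 and Aldoa (-0.05 ± 0.024) followed, all with an adjusted p of 0.998. Over all 11646 genes, 544 had an unadjusted limma p under 0.05 in this average.

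Marker lists moved with some of these comparisons. The 8 B cell markers summed to 5047 to 5195 FPKM in Ab and 4750 to 5009 in Ab_60mer, and to 4939 to 5321 in BRFc and 4636 to 4944 in BRFc_60mer. The 4 endothelial markers summed to 0.318 to 0.42 FPKM in the 6 libraries with 60mer and to at most 0.31 in the other 12. The 4 plasma cell markers (Jchain, Xbp1, Prdm1 and Sdc1, none at 0 in any library) summed to 150.5 to 160.2 FPKM in Ab and 124.6 to 134.9 in Ab_60mer, and to 139.6 to 157.1 in BRFc and 128.4 to 140.5 in BRFc_60mer. The 6 natural killer cell markers, none at 0, summed to 104.2 to 113.8 FPKM in Ab and 92.5 to 93.3 in Ab_60mer, and to 97.0 to 114 and 98.5 to 103.2 after mBaffR-mFc. With 3mer these 6 summed to 95.6 to 100.4 in Ab_3mer, also below Ab, and to 106.9 to 117.8 in BRFc_3mer. The 4 platelet markers, none at 0, summed to 17.96 to 23.63 FPKM in Ab and 16.2 to 17.5 in Ab_60mer, and to 16.2 to 21.8 and 15.9 to 17.2 after mBaffR-mFc. Their part in the lower Slc1a5, Slc3a2 and Slc16a3 values was not tested. In bulk RNA, fewer cells of a type and less RNA per cell cannot be told apart.

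Other genes of the same pathways, taken from lists chosen with earlier results of these data known, were read from the same fit. Of 21 tested genes (29 listed) of further glycolysis and pyruvate entry, 60mer after the control antibody lowered 4 and raised none, beside 8.94% of all genes lower and 5.04% higher. They were the muscle type enolase Eno3 (-0.48 ± 0.080, limma adjusted p = 0.00113), Bpgm (-0.24), which makes bisphosphoglycerate, Pfkfb4 (-0.23), which sets the level of fructose 2,6-bisphosphate, and Pdhb (-0.17), a subunit of pyruvate dehydrogenase. Eno3 fell from 36.2 ± 1.46 FPKM in Ab to 25.6 ± 1.74 in Ab_60mer (SD, n = 3). After mBaffR-mFc it was 34.1 ± 1.19 in BRFc and 26.4 ± 2.79 in BRFc_60mer, the only one of the 21 to pass there (-0.36). Bpgm averaged 15.2 ± 0.861 FPKM in Ab, 12.5 ± 0.359 in Ab_3mer and 12.7 ± 0.83 in Ab_60mer, so that it was as low with 3mer as with 60mer. After mBaffR-mFc it averaged 13.3 ± 0.704 in BRFc, 13.4 ± 0.359 in BRFc_3mer and 13.4 ± 1.18 in BRFc_60mer. Pdhb was not lower there either, at 56.1 ± 3.51 in BRFc and 56.5 ± 2.84 in BRFc_60mer. Pfkfb4 was 22.6 ± 2.37 in BRFc and 19.4 ± 1.26 in BRFc_60mer. Among carrying libraries, Ab_60mer is set against libraries 1 and 2 of Ab_3mer and not against Ab, so these calls are not retested there. None of these 4 passed: Eno3 stood at -0.23 (limma adjusted p = 0.228), Pfkfb4 at -0.18 (0.27) and Pdhb at -0.17 (0.196). Bpgm, at 12.3, 12.2 and 12.9 FPKM in the 3 libraries of Ab_3mer, carrying or not, stood at 0.04 (0.856). Of 8 further genes of the pentose phosphate path, 0 passed by limma in any comparison without a block, where 0% to 22.1% of all genes passed. In each comparison 0 or 1 of the 8 had an unadjusted limma p under 0.05. These 8 genes were not tested as a set against all genes.

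Of 18 tested further transporters (22 listed), 60mer raised 1 and lowered 2 after the control antibody, beside 14% of all genes. The gene that rose was Slc2a6, a glucose transporter family member of leukocytes that sits on lysosomes. Its mean was 19.3 ± 0.878 FPKM in Ab, 24.5 ± 2.87 in Ab_60mer, 18.3 ± 0.590 in BRFc and 29.2 ± 2.14 in BRFc_60mer, against 18.3 ± 0.239 in Ab_3mer and 18.9 ± 1.39 in BRFc_3mer. The 6 libraries with 60mer ran from 21.3 to 31.7 FPKM and the 12 others from 17.7 to 20.5, without overlap. The difference was 0.32 ± 0.074 after the control antibody (limma adjusted p = 0.0101) and 0.65 ± 0.074 after mBaffR-mFc (limma adjusted p = 9.25e-05), and the responses were not shown to differ (0.33 ± 0.105, limma adjusted p = 0.88). Slc2a6 also passed among carrying libraries (0.40, limma adjusted p = 0.0215). Slc2a8 (-0.46), an intracellular glucose transporter, and Slc36a1 (-0.35), a lysosomal amino acid transporter, fell after the control antibody. Slc36a1 fell after mBaffR-mFc as well (-0.36), and among carrying libraries it stood at -0.27 (limma adjusted p = 0.235).

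Of 26 tested regulators of glucose and amino acid use (29 listed), 60mer raised 1 and lowered 4 after the control antibody, beside 14% of all genes. Mtor, the growth kinase, rose (0.20), while Emb (-0.36), Txnip (-0.22), Egln2 (-0.45) and Ddit4 (-0.65) fell. Emb is a partner of monocarboxylate transporters and Ddit4 an inhibitor of mTORC1. Txnip, which holds back glucose uptake and is read as a sensor of glucose, went from 87.7 ± 1.76 FPKM in Ab to 75.2 ± 2.17 in Ab_60mer (-0.22 ± 0.045, limma adjusted p = 0.00517). From 88.1 ± 4.98 in BRFc it went to 77.3 ± 3.07 in BRFc_60mer (-0.19, limma adjusted p = 0.0232). The 6 libraries with 60mer held 72.8 to 79.6 FPKM of Txnip and the 12 others 82.5 to 93.8, without overlap. After mBaffR-mFc 2 of the 26 regulators passed, beside 4.83% of all genes: Txnip and Mlxip (-0.18), which encodes MondoA. Hif1a, the hypoxia regulator, differed by 0.06 after the control antibody (limma adjusted p = 0.408) and by 0.00 after mBaffR-mFc (limma adjusted p = 0.995). Myc, which drives many of these genes, differed by 0.17 (limma adjusted p = 0.475) and 0.21 (limma adjusted p = 0.478). With the deposition order as a block its adjusted p by limma was 0.0671 after the control antibody, 0.0451 after mBaffR-mFc and 0.00471 in the average of both (0.19), against 0.203 for the average without the block. Among carrying libraries Txnip stood at -0.20 (limma adjusted p = 0.0543), Emb at -0.27 (limma adjusted p = 0.133), Egln2 at -0.20 (limma adjusted p = 0.542) and Ddit4 at -0.26 (limma adjusted p = 0.63). Mtor (0.21, limma adjusted p = 0.0342) and Slc2a8 (-0.49, limma adjusted p = 0.0376) passed there. Mlxip stood at -0.09 (limma adjusted p = 0.459) in that comparison, which is after the control antibody, whereas its call above was after mBaffR-mFc.

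Averaged over the pretreatments, 60mer raised 0 and lowered 4 of the 21 glycolysis genes, raised 1 and lowered 4 of the 18 transporters and raised 1 and lowered 8 of the 26 regulators, beside 22.1% of all genes. Eno3 (-0.42), Pfkfb4 (-0.22), the pyruvate dehydrogenase kinase Pdk1 (-0.16) and Pfkfb3 (-0.13) were those of glycolysis. Among carrying libraries Pdk1 stood at -0.22 (limma adjusted p = 0.0966) and Pfkfb3 at -0.05 (limma adjusted p = 0.737). Of the 73 tested genes of the 4 lists, 12 passed for 60mer after the control antibody, beside 14% of all genes. For 3mer 0 passed by limma in either pretreatment, with 2 at an unadjusted p under 0.05 after the control antibody and 0 after mBaffR-mFc. Txnip was the gene of the regulators with the smallest adjusted p in the average (-0.20 ± 0.032, limma adjusted p = 0.000322).

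**Figure D4:**
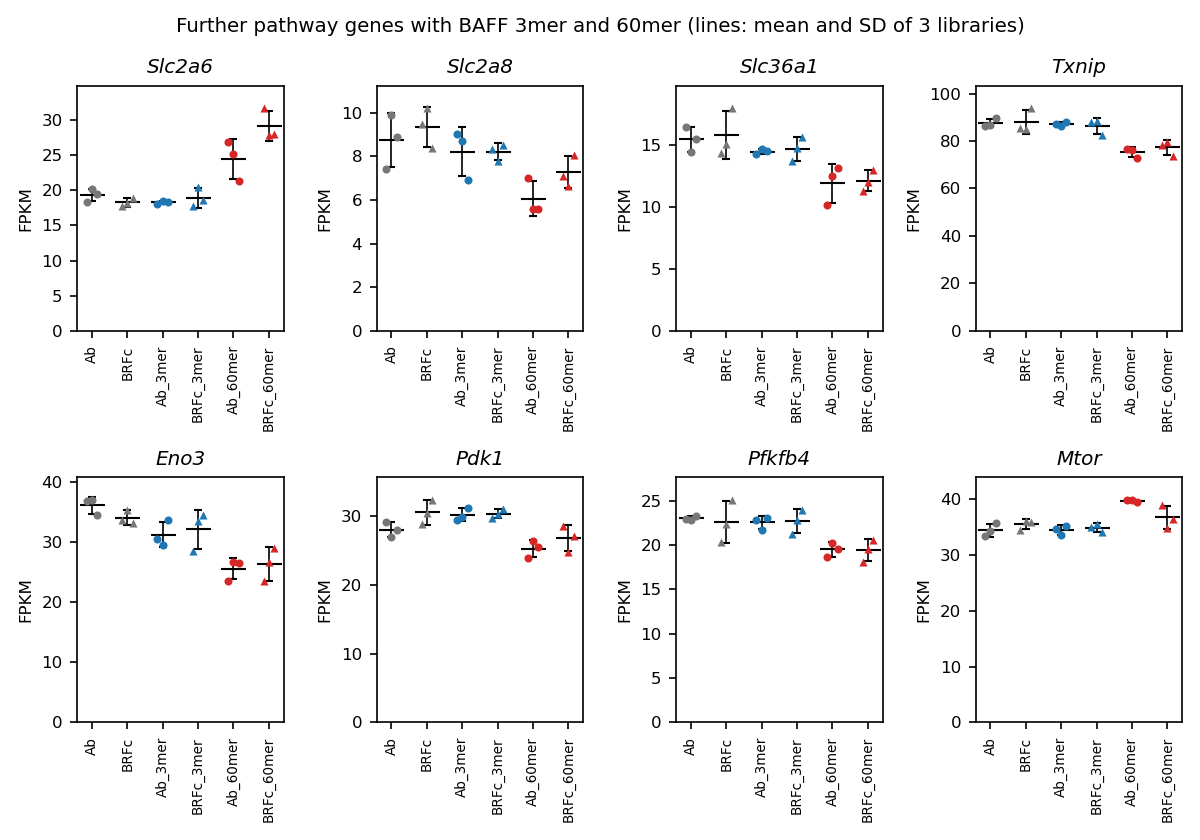
FPKM in each of the 18 libraries, by group, for 8 genes of the further lists, with lines for the mean and SD (n = 3) and axes from 0. Slc2a6 is higher and Txnip and Eno3 lower in the 60mer groups than in the others.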

How the data were processed

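RNA-seq was read from 1 table of the whole series, in which the deposited values are FPKM that, per the labels' protocols, a sequencing company computed for the authors. Aligner, counter, strand setting, genome build and scaling between libraries are not given in the sources used here. All 18 columns were used (0 left out). Symbols and positions came from GENCODE M21 (GRCm38), which held 34490 of the 35275 gene IDs. The genes of the set, the further lists and the markers were chosen with earlier results of these data known.

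FPKM were taken as log2(FPKM + 1), which understates the change of low genes, and 1 fit over the 6 groups covered the 11646 genes whose mean reached 1 FPKM. The moderated test of limma 3.58.1 (R 4.3.3), with a variance trend, was adjusted by Benjamini and Hochberg over all tested genes, with 0.05 as the threshold. The 9 comparisons of 2 groups, 2 interactions and an F test were run, and 4 averages over the other factor and the Slc7a5 to Slc3a2 ratio were added after the data were seen. Confidence intervals are 95% intervals of the model, before adjustment. The comparison among libraries carrying connective tissue transcripts was a refit without Ab_3mer library 3.

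In each comparison every gene of the set that passed is named, or else the 3 with the smallest p, and up to 4 passing genes of each further list besides Txnip, Hif1a and Myc. Library numbers follow the order of deposition. Totals were recovered from single-transcript genes, for which 88.5% of the values below 500 fragments were whole to within 0.1. On simulated data for Ab_60mer against Ab (11646 genes, 200 changed, 10 sets), the share of changed genes found was 52.7% at 1.25-fold, 84.9% at 1.5-fold and 95.5% at 2-fold, and 6.12% of calls were false. The simulated noise was independent between genes, and in the data 1628 genes passed in this comparison. These shares therefore check the method and need not hold for the data.

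Alternatives were a pseudocount of 0.1, no filter, a filter at a mean of 5 FPKM, rescaling by median of ratios, a fit limited to the compared groups, dropping every library in turn and, added after the data were seen, a block for the order of deposition.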

Additional observations from a re-analysis of the deposited data

How the results depend on the processing

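For 60mer against no BAFF after the control antibody the count of 2 genes, Slc1a5 and Slc16a3, was the same under a pseudocount of 0.1, no filter, a filter at a mean of 5 FPKM, rescaling, a fit limited to the compared groups, and without each of the 6 libraries. For Ab_60mer against Ab_3mer the count of 2 became 0 with no filter, 1 with a filter at 5 FPKM, 0 with only the groups compared, and 0 to 1 without 1 library. For BRFc_60mer against BRFc_3mer the count of 1 became 0 with no filter, 0 with only the groups compared, and 0 to 1 without 1 library. For BRFc_60mer against BRFc the count of 0 ran from 0 to 1 without 1 library. For the F test the count of 2 became 1 with no filter and 1 with rescaling, and ran from 1 to 3 without 1 library. For the averaged 60mer contrasts the counts of 6 ran from 3 to 7 (against no BAFF) and from 2 to 7 (against 3mer) without 1 library. The cause was not tested. No result reversed. Of the values of single named genes under alternatives, 68 no longer passed and 206 kept their side of the threshold, all with the same sign. The labels give no replicate numbers, so no pairing was taken as given. With the place in the order of deposition as a replicate block, an alternative chosen after the data were seen, the count became 4 for Ab_60mer against Ab, 1 for BRFc_60mer against BRFc and 4 for the F test. The count of 2 for Ab_60mer against Ab_3mer became 3, and that of 6 for the averaged 60mer against no BAFF became 9. For BRFc_60mer against BRFc_3mer it stayed at 1, and for the averaged 60mer against 3mer at 6. Over all genes the block raised the calls from 560 to 1099 for Ab_60mer against Ab_3mer, from 563 to 1105 for BRFc_60mer against BRFc, from 601 to 943 for BRFc_60mer against BRFc_3mer and from 1040 to 1871 for the F test. For Ab_60mer against Ab the calls rose from 1628 to 2428. In the averages of 60mer they rose from 2579 to 3321 against no BAFF and from 1689 to 2304 against 3mer. Depth limits the low genes most: Slc16a3 and Aldoc lie under 10 FPKM.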
